A study of Mus musculus with 10 samples.

Results

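The genes of the bone morphogenetic protein (BMP) and transforming growth factor beta (TGF-β) pathway were examined in mouse osteoblasts, the bone-forming cells. The pathway was represented by 48 named genes: 15 ligands, 10 receptors, 8 Smads, 11 antagonists or ligand-binding proteins and 4 Id genes. Every probe set of an Affymetrix array whose annotated symbol was 1 of these genes was taken, which gave 97 of 45101 probe sets for 46 of the genes. After a filter on low signal, 42 of the 46 genes were tested among 11357 genes in all. Of these 42, 37 had signal above the table median of 7.15 in all 10 arrays, and Acvr2b, Fstl3 and Grem1 had a genotype mean at or under it. Bmp3 and Gdf6 have no probe set under their symbols in the annotation used and were not analysed here.

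The 10 arrays held total RNA of osteoblasts from mice aged 2 to 3 days, on a background strain given as C5BL6, with gender recorded as indeterminate. In 4 samples the mice were wild type. In 3 samples β-catenin was expressed constitutively, and specifically in osteoblasts (β-catenin active). In the other 3, FoxO1 had been deleted specifically in osteoblasts (FoxO1 deleted). β-catenin is the nuclear effector of the canonical Wnt pathway. FoxO1 belongs to the forkhead transcription factors, which insulin signalling restrains. The promoter that restricts each change to osteoblasts, the part of each gene that was altered and the way the cells were obtained are not given in the sources used here. Whether each array stands for a separate animal is not given either, so a p-value here reflects the scatter among these samples alone, part of which may be technical.

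BMP and TGF-β ligands are secreted dimers that bring together type I and type II receptor kinases on the cell surface. The activated receptors phosphorylate Smad proteins, Smad1, Smad5 and Smad9 mainly downstream of BMPs and Smad2 and Smad3 mainly downstream of TGF-β and activin, and these enter the nucleus with Smad4. Smad6, Smad7, Bambi and the Id genes are themselves switched on by the pathway, and secreted antagonists and latent TGF-β binding proteins limit how much ligand reaches the receptors. In bone, BMPs drive osteoblast differentiation, and TGF-β stored in the matrix links resorption to formation.

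Signal is on the log2 scale throughout, so a difference of 1 is a doubling. Values per genotype are mean ± SD (n = 4 wild type, n = 3 in both altered genotypes), differences are ± SE, and adjusted p-values come from limma's test over all 11357 genes. Each gene is read from its brightest probe set, and signals of different genes are not compared. A gene rose or fell only where its adjusted p was under 0.05.

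Some facts of the arrays bear on every value. Array medians lay between 7.02 and 7.22. Wild type 1 and 2 correlated at 0.990 and wild type 3 and 4 at 0.989, against 0.971 to 0.973 between these pairs, and the same split divides them by Xist, whose signal was at least 14.05 in wild type 3 and 4 and FoxO1 deleted 2 and 3 and at most 8.96 in the other 6 arrays. Xist was low in all 3 β-catenin active arrays (7.06, 5.91 and 6.56) and split within wild type and within FoxO1 deleted. Genotype and Xist signal are therefore partly confounded. The wild-type pairs did not overlap for 19 of the 42 pathway genes (45.2%) and for 51.2% of all genes. Foxo1 signal was 9.80, 10.13 and 9.67 in the libraries labelled FoxO1 deleted, against 9.93 to 10.09 in wild type. The signal of FoxO1 deleted 2 lay above all 4 wild-type arrays, and whether the probe set lies in the deleted part is not given, so groups are named as labelled. The osteoblast genes Sp7, Alpl, Col1a1 and Ibsp had wild-type means of 11.45, 12.10, 15.11 and 14.74, and 0 of 7 osteoblast markers tested passed in any comparison by limma, with 1 at an unadjusted p under 0.05 in each. Runx2 and Bglap were not analysed here.

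With active β-catenin, follistatin, Bmp2 and Bambi rose against wild type, by 2.61-fold, 2.74-fold and 1.67-fold. These were 3 of the 42 pathway genes tested (7.14%), against 89 of all 11357 genes (0.784%), and all 3 were higher, as were 0.599% of all genes. Of the 42 genes, 33 had a difference above 0 (78.6%, against 51.3% of all genes). Fstl3 and Grem1 are among these 33, and neither would have passed the filter without the β-catenin active arrays. All these signs are those of the brightest probe sets. Of 31 further probe sets of the pathway genes that passed the filter, 18 shared the sign of the brightest probe set of their gene. The median difference was 0.17 over the pathway genes and 0.01 over all genes. The arrays of both genotypes did not overlap for 10 of the 42 genes (23.8%), 9 of them higher, against 14% of all genes, and 7.27% of all genes were higher in that way. At an unadjusted p under 0.05 there were 10 pathway genes (23.8%, against 12.1% of all genes). With FoxO1 deleted, 0 of the 42 genes passed limma's test, with 3 at an unadjusted p under 0.05 (7.14%, against 7.83% of all genes), and 3 of 11357 genes passed (0.0264%).

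**Figure D1:**
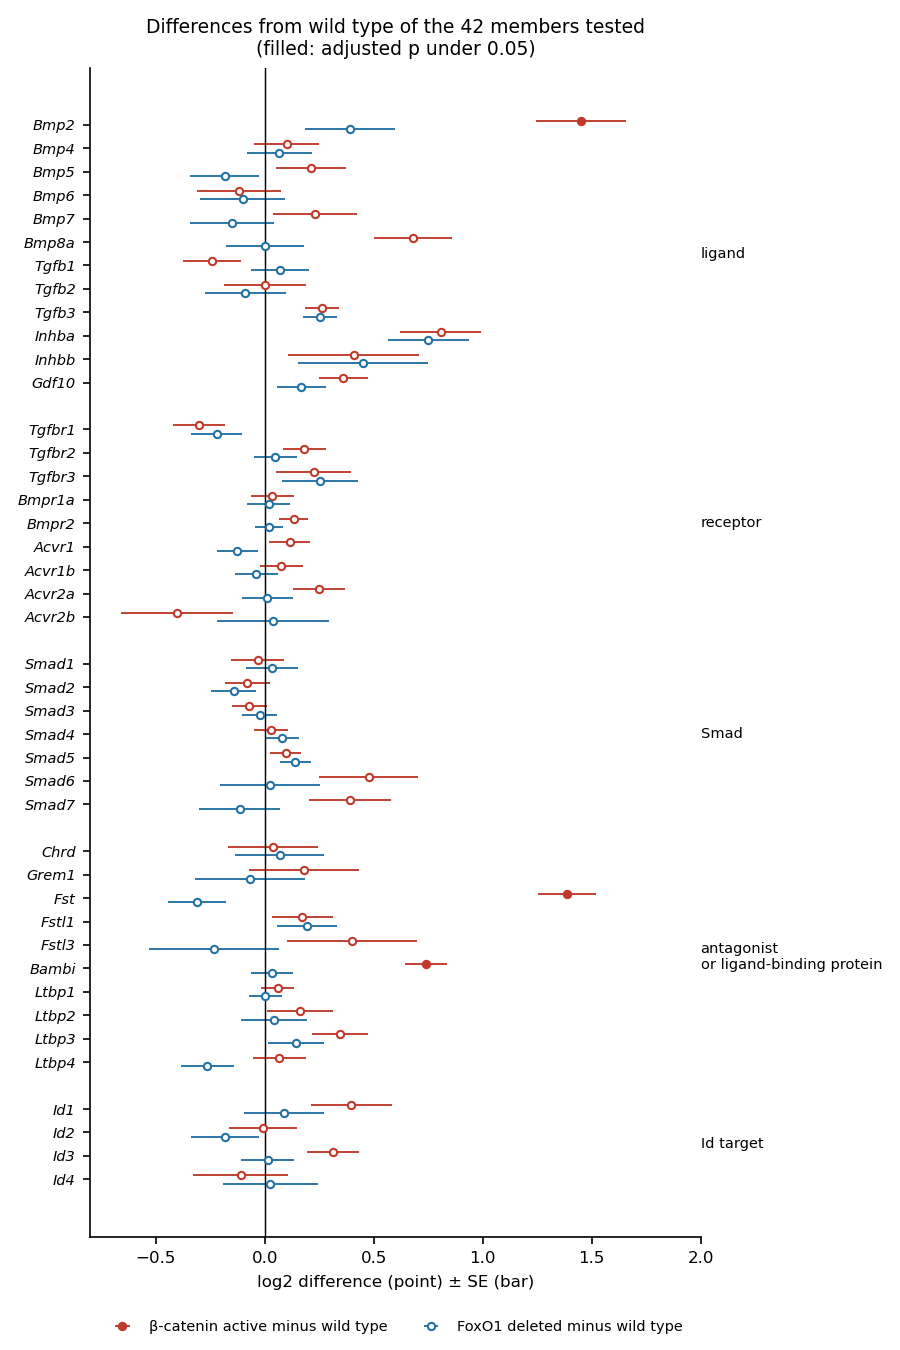
Log2 differences of the 42 tested genes, grouped by role, for β-catenin active against wild type and FoxO1 deleted against wild type, with bars of 1 SE and filled points where limma's adjusted p was under 0.05. Fst, Bmp2 and Bambi, at 1.39, 1.45 and 0.74 with active β-catenin, are the filled points, and both comparisons use the same 4 wild-type arrays.

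Bmp2 encodes a BMP that strongly induces bone formation. Its signal was 10.21, 10.34, 10.31 and 10.09 in wild type, 12.02, 11.14 and 11.91 in the β-catenin active arrays and 10.27, 10.64 and 10.98 in those with FoxO1 deleted. Every array with active β-catenin lay above all arrays of the other genotypes, and array 2 was the lowest of the 3. The means were 10.24 ± 0.11, 11.69 ± 0.48 and 10.63 ± 0.36. Bmp2 rose by 1.45 ± 0.21 against wild type (adjusted p = 0.00969). The difference between FoxO1 deleted and wild type was 0.39 ± 0.21 (adjusted p = 0.655). Against FoxO1 deleted, Bmp2 with active β-catenin was 1.06 ± 0.22 higher, which did not pass (adjusted p = 0.0751), and passed without β-catenin active 2 (adjusted p = 0.0112) or FoxO1 deleted 3 (0.0498). The rise against wild type did not pass without β-catenin active 3 (adjusted p = 0.0597) or with similar wild-type arrays averaged (0.158). Nor did it with a term for Xist signal (0.0582) or a block for replicate number (0.0698).

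Inhba encodes the βA subunit that forms activin A, the main ligand that follistatin binds. Its signal was 8.41, 8.27, 8.08 and 8.17 in wild type, 9.47, 8.58 and 9.07 in the β-catenin active arrays and 8.95, 9.16 and 8.84 in those with FoxO1 deleted. Every array of both altered genotypes lay above all 4 wild-type arrays. The difference from wild type was 0.81 ± 0.19 with active β-catenin (1.75-fold, adjusted p = 0.0838) and 0.75 ± 0.19 with FoxO1 deleted (1.68-fold, adjusted p = 0.379), and neither passed. The first of these passed without β-catenin active 2 (adjusted p = 0.0231), with median centring (0.0438) or with array weights (0.0497). Between both altered genotypes the difference was 0.06, with a 95% interval from -0.38 to 0.50. Both comparisons share the wild-type arrays. Beside Inhba, chondrocyte markers also lay higher in both altered genotypes: the summed linear signal of 14 of 15 listed genes was 35386 to 45954 in wild type, 45788 to 54989 in the β-catenin active arrays and 46550 to 94406 with FoxO1 deleted. Active β-catenin lay above wild type for 12 of these 14 genes and FoxO1 deleted for 14, 0 passing limma's test in either, with 4 and 12 at an unadjusted p under 0.05. Their part in the result was not tested.

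Tgfb3 encodes a TGF-β isoform. Its signal was 10.91, 10.82, 10.93 and 10.82 in wild type, 11.12, 11.04 and 11.24 in the β-catenin active arrays and 11.15, 11.02 and 11.20 in those with FoxO1 deleted. The altered genotypes lay above wild type in all 6 arrays, by 0.26 ± 0.08 (adjusted p = 0.171) and 0.25 ± 0.08 (adjusted p = 0.494), and neither difference passed.

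Bmp8a, a BMP of the same branch as Bmp7, was 9.36, 8.92, 8.99 and 8.69 in wild type, 9.97, 9.50 and 9.54 in the β-catenin active arrays and 8.70, 9.12 and 9.15 in those with FoxO1 deleted. Only the arrays with active β-catenin stood apart, at 0.68 ± 0.18 above wild type (adjusted p = 0.132) and 0.68 ± 0.19 above FoxO1 deleted (adjusted p = 0.264). Gdf10, a secreted member of the family also called BMP3B, was 11.86, 11.73, 11.93 and 11.85 in wild type, 12.50, 12.07 and 12.04 in the β-catenin active arrays and 12.12, 11.89 and 12.02 in those with FoxO1 deleted. Its difference with active β-catenin was 0.36 ± 0.11 (adjusted p = 0.188), with no overlap with wild type and the highest value in array 1.

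The other 6 ligands tested, Bmp4, Bmp5, Bmp6, Bmp7, Tgfb1 and Tgfb2, and the inhibin subunit Inhbb overlapped between each altered genotype and wild type. Inhbb had the largest differences among them, 0.41 ± 0.30 with active β-catenin (adjusted p = 0.657) and 0.45 ± 0.30 with FoxO1 deleted (adjusted p = 0.723). A further Inhbb probe set that passed the filter averaged 6.27 for FoxO1 deleted, below its wild-type mean of 6.99. Its mean for active β-catenin was higher, at 7.24. The Inhbb probe sets therefore disagree in direction for FoxO1 deleted. Tgfb1, the most studied TGF-β of bone matrix, differed by -0.24 ± 0.13 with active β-catenin, and its 95% interval ran from -0.53 to 0.05. Bmp4 differed by 0.10 ± 0.15, with an interval from -0.22 to 0.43. Gdf5, a growth factor of developing joints, did not pass the filter on low signal and was not tested. Its signal was 2.97, 4.32, 5.61 and 4.63 in wild type, 6.71, 6.46 and 6.89 in the β-catenin active arrays and 6.45, 6.10 and 5.29 in those with FoxO1 deleted, all under the table median of 7.15.

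**Figure D2:**
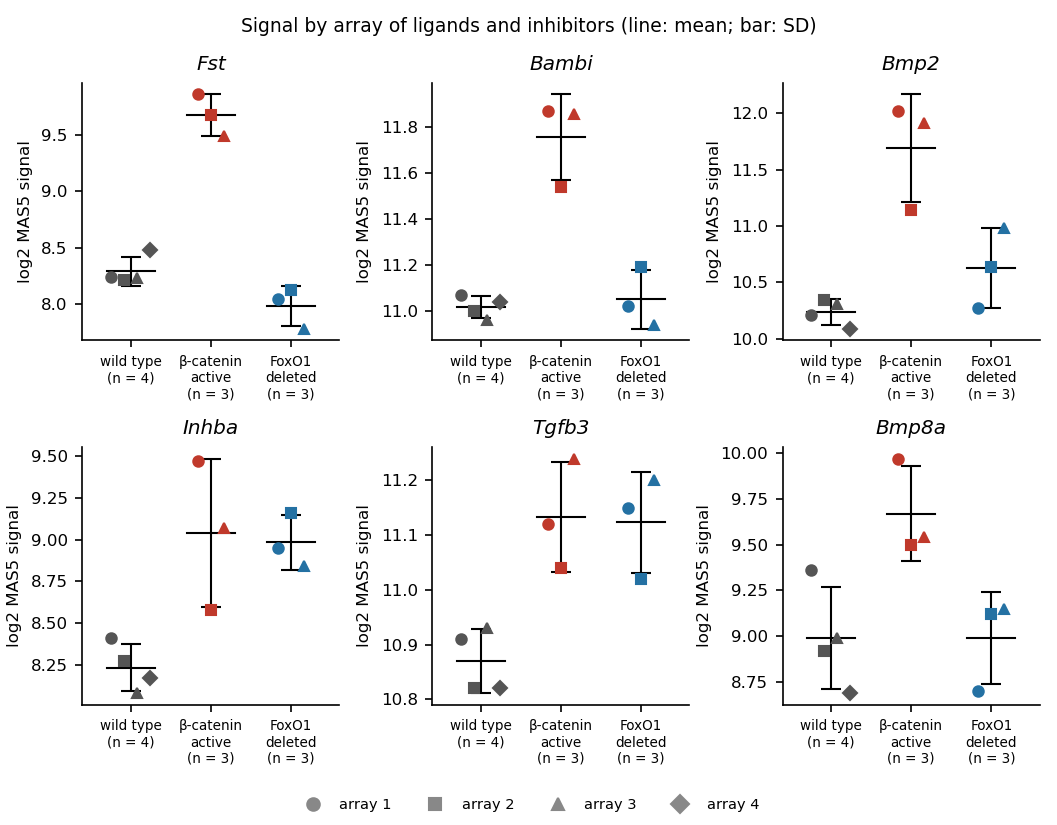
Log2 signal by array of 6 ligands and inhibitors of the pathway in wild type (n = 4), β-catenin active (n = 3) and FoxO1 deleted (n = 3), with a line at the mean and bars of 1 SD. Fst at 9.49 to 9.86 and Bambi at 11.54 to 11.87 with active β-catenin lie above every other array, and Inhba lies above wild type in both altered genotypes.

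The bases before the start site of Inhba and Bmp8a are shown because these genes had the largest differences with active β-catenin among pathway genes whose promoter is in the RefSeq table used (assembly GRCm38.p6). That table holds promoters of 34 of the 48 genes, and those of Fst, Bmp2 and Bambi are not among them. Each line gives the 250 bases 5′ of the annotated start, 5′ to 3′ on the gene's strand, at chr13:16011601-16011850 (plus strand) for Inhba and chr4:123343253-123343502 (minus strand) for Bmp8a. Capitals mark CAAAG, a core of the site that TCF/LEF factors, the DNA-binding partners of β-catenin, recognise, and its reverse complement CTTTG.
Inhba: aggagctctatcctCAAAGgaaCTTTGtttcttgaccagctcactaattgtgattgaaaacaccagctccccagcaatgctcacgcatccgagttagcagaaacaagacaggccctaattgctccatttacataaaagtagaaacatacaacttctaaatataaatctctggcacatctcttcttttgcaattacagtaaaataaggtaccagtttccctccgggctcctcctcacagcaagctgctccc
Bmp8a: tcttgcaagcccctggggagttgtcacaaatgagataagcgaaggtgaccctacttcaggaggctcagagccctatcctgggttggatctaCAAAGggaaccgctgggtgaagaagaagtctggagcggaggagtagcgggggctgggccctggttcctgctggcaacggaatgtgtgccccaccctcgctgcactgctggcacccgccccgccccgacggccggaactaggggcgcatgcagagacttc
The Inhba window held 2 matches and the Bmp8a window 1. These 5 letters were found in 48.6% of 32817 promoter windows of this length and in 20 of 42 windows of the pathway genes (47.6%), so the match does not set these promoters apart, and a match is not evidence of binding.

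No receptor passed the test in any of the 3 comparisons by limma. Tgfbr1, the type I TGF-β receptor, was 12.45, 12.45, 12.08 and 12.13 in wild type, 11.86, 12.00 and 12.07 in the β-catenin active arrays and 11.87, 12.22 and 12.08 in those with FoxO1 deleted. It was the only pathway gene tested whose arrays with active β-catenin all lay below wild type (6.76% of all genes did), by 0.01 at the nearest, with a difference of -0.30 ± 0.12 (adjusted p = 0.324). The higher wild-type values were those of arrays 1 and 2. Bmpr2, the type II BMP receptor, was 12.61, 12.65, 12.70 and 12.60 in wild type, 12.75, 12.81 and 12.76 in the β-catenin active arrays and 12.60, 12.62 and 12.76 in those with FoxO1 deleted, a difference of 0.13 ± 0.07 with active β-catenin (adjusted p = 0.459).

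Acvr2a, a type II receptor for activins, had a mean of 9.90 ± 0.08 in wild type and read 9.91, 10.38 and 10.15 in the β-catenin active arrays and 9.87, 9.79 and 10.07 in those with FoxO1 deleted. The groups overlapped, and the difference of active β-catenin was 0.25 ± 0.12 from wild type (adjusted p = 0.432) and 0.24 ± 0.13 from FoxO1 deleted (adjusted p = 0.7). Acvr1, the BMP type I receptor also called ALK2, was 11.38, 11.54, 11.41 and 11.44 in wild type, 11.58, 11.62 and 11.47 in the β-catenin active arrays and 11.47, 11.38 and 11.10 in those with FoxO1 deleted, where array 3 was lowest. Active β-catenin lay 0.24 ± 0.10 above FoxO1 deleted (adjusted p = 0.567).

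Tgfbr3, the co-receptor betaglycan, was 11.21, 11.11, 11.36 and 11.22 in wild type, 11.39, 11.61 and 11.35 in the β-catenin active arrays and 11.43, 11.04 and 11.97 in those with FoxO1 deleted. Its difference with FoxO1 deleted of 0.26 ± 0.17 (adjusted p = 0.735) rested mostly on array 3. Tgfbr2, Bmpr1a and Acvr1b differed from wild type by no more than 0.18, and Acvr2b, which was near the table median, by -0.40 ± 0.26 with active β-catenin (adjusted p = 0.589). Bmpr1b did not pass the filter, with 6.04 to 7.29 in its brightest probe set.

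The Smads that carry the signal differed little. Smad1, Smad2, Smad3, Smad4 and Smad5 had differences between -0.14 and 0.14 in both comparisons with wild type, and none passed limma's test. For Smad4, the partner shared by both branches, the 95% interval of the difference with active β-catenin was -0.14 to 0.20, and for Smad3 it was -0.25 to 0.11. Smad5 was 10.42, 10.47, 10.41 and 10.47 in wild type, 10.54, 10.46 and 10.62 in the β-catenin active arrays and 10.55, 10.61 and 10.59 in those with FoxO1 deleted. The last 3 values lay above wild type, by 0.14 ± 0.07 (adjusted p = 0.651). The other 2 probe sets of Smad5 that passed the filter were lower with FoxO1 deleted, by -0.25 (adjusted p = 0.583 over probe sets) and -0.22 (0.798), so the probe sets disagree in direction. Smad2 was 9.41, 9.39, 9.59 and 9.46 in wild type, 9.17, 9.49 and 9.49 in the β-catenin active arrays and 9.30, 9.37 and 9.29 in those with FoxO1 deleted, all 3 below wild type, by -0.14 ± 0.10 (adjusted p = 0.761). Smad9 did not pass the filter, with 6.32 as its highest signal.

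Smad6 and Smad7 are the inhibitory Smads, which block receptors and Smad activation. Smad6 was 10.78, 10.78, 10.25 and 10.24 in wild type, 11.54, 10.57 and 10.86 in the β-catenin active arrays and 10.24, 10.63 and 10.74 in those with FoxO1 deleted. Its difference with active β-catenin was 0.48 ± 0.23 (adjusted p = 0.442), with array 1 alone far above wild type and array 2 within it, and without array 1 it was 0.20. Between the similar pairs of wild-type arrays Smad6 differed by 0.54, the largest such gap among the pathway genes. Smad7 was 9.35, 8.95, 8.93 and 9.15 in wild type, 9.81, 9.30 and 9.35 in the β-catenin active arrays and 9.14, 9.24 and 8.56 in those with FoxO1 deleted. Active β-catenin was 0.39 ± 0.19 above wild type (adjusted p = 0.441) and 0.51 ± 0.20 above FoxO1 deleted (adjusted p = 0.533), and did not overlap with the latter.

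Fst encodes follistatin, which binds and neutralises activins and some BMPs. Its signal was 8.24, 8.21, 8.23 and 8.48 in wild type, 9.86, 9.68 and 9.49 in the β-catenin active arrays and 8.04, 8.12 and 7.78 in those with FoxO1 deleted. The genotypes did not overlap, with FoxO1 deleted lowest and β-catenin active highest. The means were 8.29 ± 0.13, 9.68 ± 0.19 and 7.98 ± 0.18. Fst rose by 1.39 ± 0.13 with active β-catenin against wild type (adjusted p = 0.000925) and was 1.70 ± 0.14 higher, or 3.24-fold, than with FoxO1 deleted (adjusted p = 0.00101). The difference between FoxO1 deleted and wild type was -0.31 ± 0.13 and did not pass (adjusted p = 0.635).

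A further Fst probe set read 7.63, 7.62, 7.68 and 7.64 in wild type, 9.12, 9.10 and 8.36 in the β-catenin active arrays and 7.56, 7.53 and 7.49 in those with FoxO1 deleted. It kept the order of the genotypes, with array 3 closer to wild type. Tested over all 20127 probe sets that passed the filter, it rose by 1.22 against wild type (adjusted p = 0.014) and was 1.33 higher than with FoxO1 deleted (adjusted p = 0.0131). Of the 31 further probe sets of the pathway genes that passed the filter, it was the only 1 that passed in either comparison, against 0.507% of all probe sets for active β-catenin against wild type and 0.442% for active β-catenin against FoxO1 deleted. With FoxO1 deleted against wild type, 0 of the 31 passed (0.0149% of all probe sets).

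Bambi encodes a decoy receptor that lacks a kinase and dampens BMP and TGF-β signalling. Its signal was 11.07, 11.00, 10.96 and 11.04 in wild type, 11.87, 11.54 and 11.86 in the β-catenin active arrays and 11.02, 11.19 and 10.94 in those with FoxO1 deleted. The arrays with active β-catenin lay above the rest, and wild type and FoxO1 deleted overlapped. The means were 11.02 ± 0.05, 11.76 ± 0.19 and 11.05 ± 0.13. Bambi rose by 0.74 ± 0.10 against wild type (adjusted p = 0.00576) and was 0.71 ± 0.10 higher, or 1.63-fold, than with FoxO1 deleted (adjusted p = 0.0121), and FoxO1 deleted differed from wild type by 0.03 (adjusted p = 0.95). The rise against wild type did not pass with similar wild-type arrays averaged (adjusted p = 0.127), with a term for Xist signal (0.0582) or with a block for replicate number (0.0698). The difference from FoxO1 deleted did not pass without β-catenin active 3 (adjusted p = 0.0650) or without FoxO1 deleted 1 (0.0623). Nor did it with only these genotypes fitted (0.0957), the Xist term (0.182) or the replicate block (0.0839).

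Of the 10 antagonists and ligand-binding proteins tested, all 10 had a difference above 0 with active β-catenin, against 51.3% of all genes, and 2 of them passed, against 0.784%. Fstl3, 1 of these 10, passed the filter on low signal through β-catenin active 1 and 3 (7.64 and 7.27) and wild type 4 (7.34). Grem1, another of them, passed through β-catenin active 1 and 3 (7.19 and 7.60) and wild type 1 and 3 (7.33 and 7.22). Without the β-catenin active arrays neither gene would have been kept. The signs of Fstl3 and Grem1 here are therefore not independent of the filter. Chrd had the smallest difference, 0.04. With FoxO1 deleted 6 of 10 were above 0, near the 50% of all genes. The latent TGF-β binding proteins Ltbp1, Ltbp2, Ltbp3 and Ltbp4 hold TGF-β in the matrix. The largest difference among them with active β-catenin was that of Ltbp3, 0.35 ± 0.13 (adjusted p = 0.288). Another 2 Ltbp3 probe sets that passed the filter pointed the other way, with β-catenin active means of 8.70 and 8.13 against wild-type means of 8.87 and 8.37. A further Ltbp3 probe set was higher, at 11.35 against 11.155, so the probe sets of this gene disagree in direction. Ltbp4 was 9.04, 9.08, 9.32 and 9.25 in wild type, 9.34, 9.13 and 9.25 in the β-catenin active arrays and 9.10, 8.70 and 8.93 in those with FoxO1 deleted. With FoxO1 deleted it differed from wild type by -0.26 ± 0.12 (adjusted p = 0.638), with overlap, and all 3 arrays lay below those with active β-catenin. Chrd and Grem1, secreted BMP antagonists, had means near the table median and differences from wild type of at most 0.18, and Fstl1 and Fstl3, relatives of follistatin, differed by 0.17 and 0.40 with active β-catenin without passing. Nog, the BMP antagonist noggin, did not pass the filter, with 6.08 as its highest signal.

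Id genes encode inhibitors of basic helix-loop-helix factors and are direct targets of BMP-activated Smads. Id1 was 10.86, 11.03, 11.07 and 11.18 in wild type, 12.00, 11.11 and 11.19 in the β-catenin active arrays and 11.01, 11.28 and 11.08 in those with FoxO1 deleted. Only β-catenin active 1 stood apart, and array 2 lay within wild type. The difference with active β-catenin was 0.40 ± 0.18 (adjusted p = 0.42), and 0.12 without array 1. Id3 was 11.90, 11.90, 11.93 and 11.83 in wild type, 12.49, 12.03 and 12.09 in the β-catenin active arrays and 11.67, 12.06 and 11.98 in those with FoxO1 deleted. Its arrays with active β-catenin all lay above wild type, by 0.31 ± 0.12 (adjusted p = 0.307), and by 0.17 without array 1. Against FoxO1 deleted, Id3 was 0.30 ± 0.13 higher (adjusted p = 0.587) and Id1 0.31 ± 0.20 higher (adjusted p = 0.766).

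Id2 was 12.32, 12.49, 12.49 and 12.67 in wild type, 12.95, 12.28 and 12.23 in the β-catenin active arrays and 12.40, 12.33 and 12.20 in those with FoxO1 deleted. It differed from wild type by -0.01 with active β-catenin, with a 95% interval from -0.35 to 0.34, and by -0.18 ± 0.16 with FoxO1 deleted (adjusted p = 0.793). Id4 differed by -0.11 and 0.03. Of the 4 Id genes, 2 had a difference above 0 with active β-catenin (51.3% of all genes did) and 3 with FoxO1 deleted (50%), and 0 of 4 passed limma's test in either, Id3 with active β-catenin being the only 1 at an unadjusted p under 0.05.

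**Figure D3:**
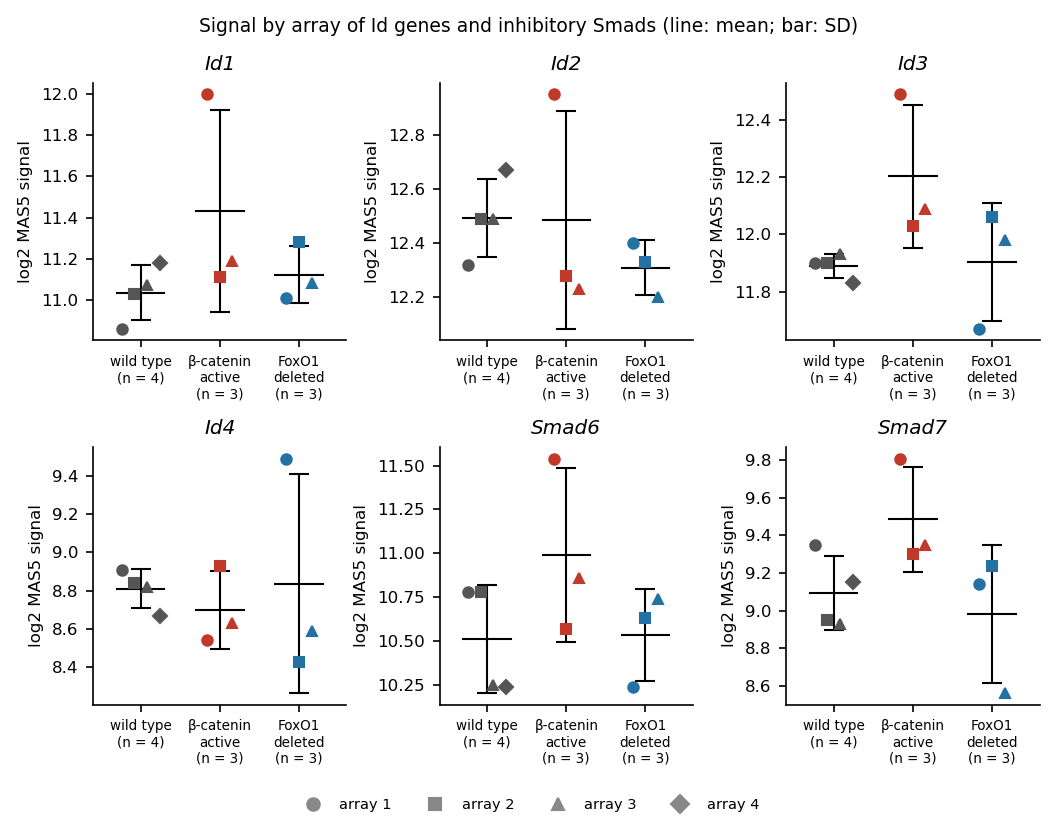
Log2 signal by array of the 4 Id genes and the inhibitory Smads in wild type (n = 4), β-catenin active (n = 3) and FoxO1 deleted (n = 3), with a line at the mean and bars of 1 SD. Array 1 of β-catenin active is the highest point for Id1, Id2, Id3, Smad6 and Smad7, at 12.00, 12.95, 12.49, 11.54 and 9.81.

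The promoter window of Id3 is shown because it was the Id gene whose arrays with active β-catenin did not overlap with wild type. It covers the 250 bases 5′ of the start at chr4:136143572-136143821 on the plus strand of GRCm38.p6, from RefSeq, and capitals mark CAGAC, a short element bound by Smads, and its reverse complement GTCTG.
Id3: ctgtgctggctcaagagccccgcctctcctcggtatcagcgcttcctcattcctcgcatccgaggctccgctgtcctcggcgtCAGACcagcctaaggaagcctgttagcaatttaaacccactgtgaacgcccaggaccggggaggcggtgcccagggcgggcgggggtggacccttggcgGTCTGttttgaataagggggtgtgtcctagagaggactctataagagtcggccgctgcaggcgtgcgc
The window held 2 matches. At least 1 was found in 42.2% of 32817 windows and in 19 of 42 windows of the pathway genes (45.2%).

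The high values of array 1 were a wider feature of the pathway. β-catenin active 1 was the highest of all 10 arrays for 16 of the 42 genes (38.1%), against 14.5% of all genes tested. β-catenin active 2 and 3 were highest for 7 (16.7%, against 10.4%) and 5 (11.9%, against 9.88%). Without β-catenin active 1, the same 3 genes passed against wild type (7.14%, against 0.352% of all genes). In that fit 35 of 42 differences were above 0, against 50.3% of all genes. Endothelial markers also stood apart with active β-catenin. The summed linear signal of 11 of 11 listed endothelial genes was 9044 to 9261 in wild type, 10652 to 12154 in the β-catenin active arrays and 9691 to 10251 with FoxO1 deleted, highest in β-catenin active 1. Of the 11 genes, 10 were above wild type, 0 passing limma's test and 7 at an unadjusted p under 0.05, among them Kdr at 0.42 (adjusted p = 0.0824). Eng, a TGF-β co-receptor that endothelial cells carry in quantity, was 0.60 ± 0.14 above wild type with active β-catenin (adjusted p = 0.0925).

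Among 12 fibroblast and smooth muscle markers, Thy1 and S100a4 rose with active β-catenin, by 0.91 (adjusted p = 0.0368) and 0.42 (adjusted p = 0.0384), and 11 of 12 differences were above 0. Their summed signal overlapped, from 120146 to 132966 in the wild-type arrays and from 127688 to 151940 in those with active β-catenin. All 5 erythroid markers tested were below wild type with active β-catenin, 0 passing limma's test and 4 at an unadjusted p under 0.05, and their sums were between 1490 and 4035 in the wild-type arrays and between 729 and 1070 in those with active β-catenin. The 8 osteoclast markers were also all below wild type, 0 passing and 0 at an unadjusted p under 0.05, and their sums overlapped. The summed signal of the 3 adipocyte markers tested of 8 listed was 12910 to 14709 in wild type and 15205 to 20025 in the β-catenin active arrays, 0 passing limma's test and 1 at an unadjusted p under 0.05. Of 10 skeletal muscle and 9 macrophage and leukocyte markers, 7 and 3 were above wild type with active β-catenin, 0 passing limma's test and 1 of each at an unadjusted p under 0.05. The part of these cell types in the pathway results was not tested, and fewer cells of a type cannot be told apart from less RNA per cell in such samples.

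Genes around the 48 were taken from lists of further ligands, receptors, antagonists, intracellular regulators, activators of latent TGF-β and known target genes. These lists were chosen with earlier results of these data known, so shares beside those of all genes are a description and not a test. Of the targets, 16 of 18 were tested, 4 rose with active β-catenin against wild type (0.599% of all genes did), none fell and all 16 differences were above 0 (51.3% of all genes), with a median of 0.21. With FoxO1 deleted, 11 of 16 were above 0 (50% of all genes) and 0 passed limma's test (0.0264%), with Tgfbi the only 1 at an unadjusted p under 0.05 (7.83% of all genes). Ccn2, the matrix protein also called connective tissue growth factor and a classic TGF-β target, was 12.48, 12.40, 12.29 and 12.22 in wild type, 13.81, 13.59 and 13.33 in the β-catenin active arrays and 12.30, 12.39 and 12.43 in those with FoxO1 deleted. The arrays with active β-catenin stood apart, and Ccn2 rose by 1.23 ± 0.11 (2.34-fold, adjusted p = 0.000684). Cdkn1a, which encodes the cell cycle inhibitor p21 and also responds to p53, rose by 0.93 ± 0.07 (1.90-fold, adjusted p = 0.000441).

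Hey1, a transcriptional repressor induced by both Notch and BMP, rose by 1.53 ± 0.24 (2.89-fold, adjusted p = 0.0181). Klf10, the TGF-β inducible early gene, rose by 0.64 ± 0.11 (1.56-fold, adjusted p = 0.0232), from 10.86 to 10.97 in wild type to 11.23 to 11.74 with active β-catenin. The calls of Hey1 and Klf10 were less stable than those of Ccn2 and Cdkn1a. Hey1 did not pass without wild type 3, wild type 4, β-catenin active 1 or β-catenin active 3, where its highest adjusted p was 0.0826. Klf10 did not pass without any 1 of the 4 wild-type arrays, β-catenin active 1 or β-catenin active 2, where its highest adjusted p was 0.101. With similar wild-type arrays averaged, the adjusted p was 0.187 for Hey1 and 0.278 for Klf10, and with the Xist term it was 0.156 and 0.14. With a block for replicate number it was 0.0963 and 0.106, and Klf10 did not pass without a variance trend (0.0541). All 4 were also higher than with FoxO1 deleted, Ccn2 by 2.30-fold (adjusted p = 0.00101), Cdkn1a by 1.82-fold (0.00101), Hey1 by 3.42-fold (0.0121) and Klf10 by 1.65-fold (0.018). Of these, Hey1 no longer passed without β-catenin active 3 or FoxO1 deleted 1 (adjusted p up to 0.0662), nor Klf10 without β-catenin active 1 or 2 or FoxO1 deleted 1 or 3 (up to 0.0758). With the Xist term these differences of Hey1 and Klf10 had adjusted p-values of 0.245 and 0.239. Klf10 also did not pass with only these genotypes fitted (0.149), averaged wild-type arrays (0.0708) or the replicate block (0.0725).

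**Figure D4:**
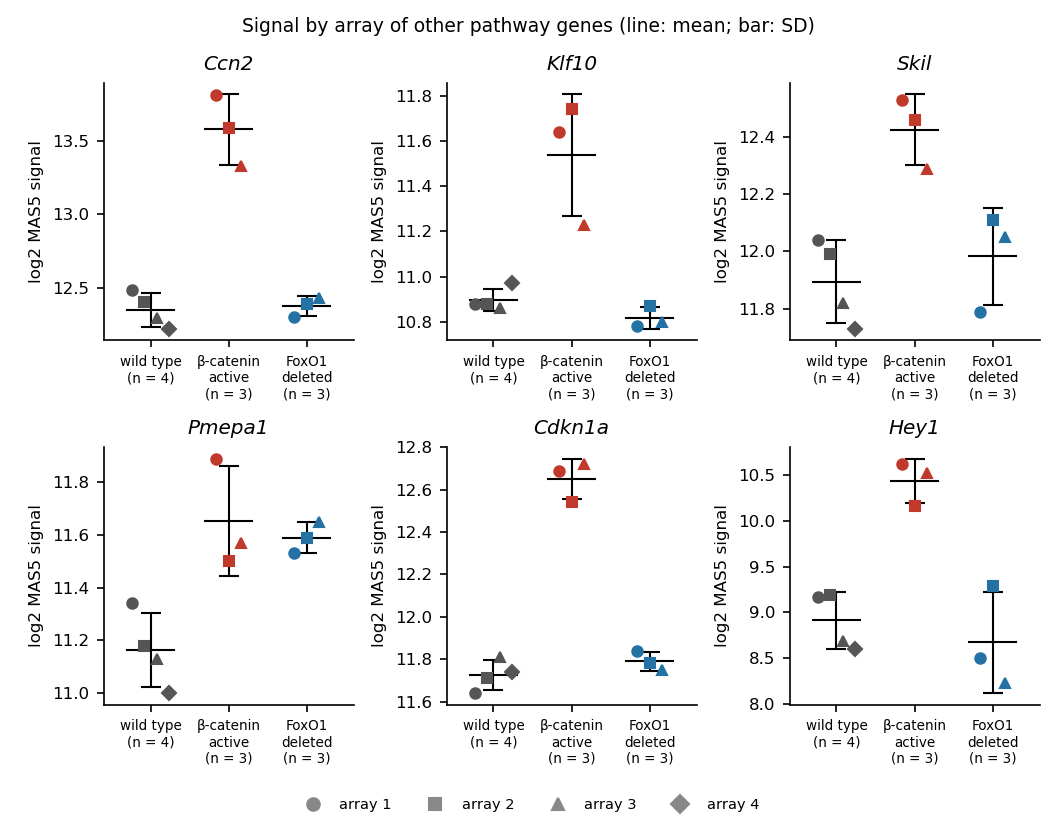
Log2 signal by array of 4 pathway targets and the regulators Skil and Pmepa1 in wild type (n = 4), β-catenin active (n = 3) and FoxO1 deleted (n = 3), with a line at the mean and bars of 1 SD. Ccn2 at 13.33 to 13.81 and Klf10 at 11.23 to 11.74 with active β-catenin lie above all other arrays. Pmepa1, in its brightest probe set, lies above wild type in both altered genotypes.

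Of 14 intracellular regulators tested, 1 rose with active β-catenin against wild type (0.599% of all genes did). Skil, a Smad-binding repressor that TGF-β itself induces, was 12.04, 11.99, 11.82 and 11.73 in wild type, 12.53, 12.46 and 12.29 in the β-catenin active arrays and 11.79, 12.11 and 12.05 in those with FoxO1 deleted. Its arrays with active β-catenin were the highest, and it rose by 0.53 ± 0.11 (1.45-fold, adjusted p = 0.0478). Skil no longer passed when any 1 of the 7 arrays compared was left out (adjusted p up to 0.163), with the Xist term (0.223) or with averaged wild-type arrays (0.353). Nor did it pass with no filter on low signal (0.0628), quantile scaling (0.0664) or every probe set that passed the filter tested (0.0601). The same held with array weights (0.0515), no variance trend (0.0941) or a block for replicate number (0.236). Pmepa1, a TGF-β induced inhibitor of Smad signalling, was 0.49 ± 0.11 above wild type with active β-catenin (adjusted p = 0.0702) and 0.43 ± 0.11 with FoxO1 deleted (adjusted p = 0.379), and no array of either overlapped with wild type. In another Pmepa1 probe set the differences were 0.06 and 0.02, and both genotypes overlapped with wild type. In a further probe set they were 0.52 and 0.69, and neither passed.

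Sostdc1, a secreted antagonist of BMP and Wnt signalling, was 0.72 ± 0.18 above wild type with active β-catenin (adjusted p = 0.0965) and 1.04 ± 0.19 above FoxO1 deleted, which passed (2.06-fold, adjusted p = 0.0309). It no longer passed once wild type 4, β-catenin active 2, β-catenin active 3, FoxO1 deleted 1 or FoxO1 deleted 2 was left out (adjusted p up to 0.159). Nor did it pass with median centring (0.0529), no variance trend (0.0559) or averaged wild-type arrays (0.06). The same held with only these genotypes fitted (0.0692), the replicate block (0.164) or the Xist term (0.57). A further Sostdc1 probe set was 0.81 above FoxO1 deleted (limma's adjusted p = 0.267 over probe sets) and 0.60 above wild type (0.268), and passed in neither. Sostdc1 was 1 of 9 antagonists tested beside the 48 genes. Of the further ligands, receptors and activators of latent TGF-β, 3, 5 and 5 were tested. By limma, 0 of these passed in any comparison. Eng and Amhr2, the receptor of anti-Müllerian hormone, had an unadjusted p under 0.05 with active β-catenin against wild type, Amhr2 at -0.71 ± 0.26 (adjusted p = 0.288), and Eng had against FoxO1 deleted. Amhr2 passed the filter on low signal only through wild type 2, 3 and 4 (7.23, 7.25 and 7.27). Its lower signal with active β-catenin is therefore not independent of the filter.

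Set directly against FoxO1 deleted, active β-catenin gave 2 pathway genes that passed, Fst and Bambi (4.76%, against 76 of 11357 genes, 0.669%). The arrays did not overlap for 9 of the 42 genes (21.4%, against 9.54% of all genes), all of them higher with active β-catenin (5.39% of all genes were). The genes without overlap were the ligands Bmp2, Bmp5, Bmp7 and Bmp8a, the inhibitors Fst, Bambi and Smad7, and Ltbp1 and Ltbp4. At an unadjusted p under 0.05 there were also 9 (21.4%, against 8.03% of all genes), with Acvr1 and Id3 in place of Bmp7 and Ltbp1. Differences above 0 numbered 29 of 42 (69%, against 50.3% of all genes). Fstl3 and Grem1, whose signs are not independent of the filter, are among these 29. Of the 31 further probe sets that passed the filter, 17 shared the sign of the brightest probe set of their gene. The same number did so with FoxO1 deleted against wild type, and 18 with active β-catenin against wild type. With FoxO1 deleted against wild type, 26 of 42 differences were above 0 (61.9%, against 50% of all genes), and the arrays did not overlap for 5 genes (11.9%, against 9.03%), with Inhba, Tgfb3 and Smad5 higher and Fst and Smad2 lower.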

How the data were processed

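Per the labels, biotinylated cRNA made from 500 ng of each sample's total RNA went onto 1 Affymetrix array. The authors deposited log2 signal from MAS5, for which the submitters' processing notes give no version. The 2% trimmed mean of the linear values was near 500 in every array, and no further normalization is given in the sources used here. Precision is limited by how many arrays there are.

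Probe sets with 1 gene in the platform annotation (34958 of 45101, with 932 naming several genes and 9211 none) were kept if their third-highest value exceeded the table median of 7.15, and each gene was read from the brightest of its kept probe sets. Gene IDs of 99.4% of them were found in RefSeq GRCm38.p6. Limma 3.58.1 in R 4.3.3 fitted 1 mean per genotype over all 10 arrays, with eBayes with trend, two-sided tests, Benjamini-Hochberg adjustment over 11357 genes and 7 residual degrees of freedom. Intervals are 95% intervals of that fit. It was tested on simulated data.

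The members and lists were chosen with earlier results of these data known. Values by array are given for members that passed, that did not overlap with wild type, or that had the 2 smallest p-values of their role, and other genes are given by range or count, with at most 4 per list. Bmp4, Tgfb1, Gdf5 and other members outside that rule were named after their values were seen. Alternatives were other filters, scalings, summaries, variance priors, array weights, a replicate block, an Xist term, averaged wild-type pairs, only the genotypes compared and leaving out each array.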

Additional observations from a re-analysis of the deposited data

Results flagged for a closer look

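Fst in wild type had 1 array apart from the others: wild type 4 read 8.48 against 8.21 to 8.24 in the other 3, a gap of 0.889 of the whole range, above Dixon's 95% critical value for 4 samples. It was the only 1 of 20 pathway genes checked in wild type to do so, and chance flags about 1 in 20 such groups. Without wild type 4 the Fst difference with active β-catenin still passed.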

How the results depend on the processing

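Fst, Ccn2 and Cdkn1a passed with active β-catenin, against wild type and against FoxO1 deleted, under all 24 alternatives run. The 3 pathway genes called for active β-catenin against wild type fell to 1 under the replicate block, with similar wild-type arrays averaged and with the Xist term, and ranged from 2 to 4 when each array was left out. The 2 called against FoxO1 deleted fell to 1 with only the groups compared, the block or the Xist term (1 to 3 leaving out arrays), and 0 with FoxO1 deleted against wild type stayed at 0 by limma (0 to 0), with 3 at an unadjusted p under 0.05.

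Of all genes, the 89 called for active β-catenin against wild type became 141 with only the groups compared, 149 with array weights, 15 with the block, 9 with averaged wild-type arrays and 10 with the Xist term (31 to 130 leaving out arrays). The 3 for FoxO1 deleted became 5 with quantile scaling or without trend, 1 with only the groups compared, 29 with array weights and 0 by limma with the block (635 at an unadjusted p under 0.05) or averaged arrays (345), and 0 to 7 leaving out arrays. The 76 for active β-catenin against FoxO1 deleted became 25 with only the groups compared, 22 with the block, 49 with averaged arrays and 6 with the Xist term (29 to 62 leaving out arrays). Differences above 0 numbered 31 to 35, 20 to 27 and 26 to 33 leaving out arrays, in the order of these comparisons, a count added after the data were seen. Smad5 with FoxO1 deleted turned to -0.11 with the mean of its probe sets, and the probe sets themselves disagree. The causes of the other changes were not tested. Deviations of same-numbered arrays correlated at -0.287 to 0.29, which does not show that replicate numbers pair the samples. With so few arrays, these correlations cannot exclude pairing either.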
